A study of Mus musculus with 10 samples.

Results

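The Akr1c genes encode aldo-keto reductases of the 1C subfamily and, apart from *Akr1cl* on chromosome 1, lie side by side on mouse chromosome 13. Described here are 5 of them, *Akr1c6*, *Akr1c13*, *Akr1c14*, *Akr1c19* and *Akr1c20*, out of 12147 genes tested in the livers of germ-free (GF) mice. These 5 were chosen by measured values of the same livers, their normalised counts with and without microbiota-derived extracellular vesicles (MEV), so the differences between groups are given as a description and no p-value is attached to them. The GENCODE annotation held 9 Akr1c genes, of which 6 were in the count table. The sixth, *Akr1c12*, was not among the chosen genes and could be tested. For *Akr1c18*, *Akr1c21* and *Akr1cl*, expression was not analysed here, and they enter the comparisons of sequence alone.

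Aldo-keto reductases use NADPH or NADH to interconvert carbonyl groups and alcohols. Those of the 1C subfamily act as hydroxysteroid dehydrogenases: they oxidise or reduce single positions of the steroid skeleton and so switch hormones between active and weak forms, and several also handle prostaglandins and foreign carbonyl compounds. The liver is a main site of this chemistry, where it stands beside the enzymes of bile acid synthesis and of aldehyde and alcohol clearance. *Akr1c6* encodes the mouse type 5 17-beta-hydroxysteroid dehydrogenase, and *Akr1c14* a 3-alpha-hydroxysteroid dehydrogenase. *Akr1c12*, *Akr1c13* and *Akr1c19* encode dehydrogenases that act on hydroxysteroids and on alicyclic alcohols, and *Akr1c20* encodes a reductase of ketosteroids and other carbonyl compounds.

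Wild-type GF C57BL6 mice received 80 μg of MEV in PBS by mouth, 2 doses per week for 3 weeks (GF+MEV), or PBS alone (GF+PBS). Both groups therefore lacked a microbiota, and the MEV came from the gut content of conventional control mice. The age and sex of the GF mice are not given in the sources used here. RNA from whole liver was sequenced from 5 mice per group, 1 library per mouse, and the comparison asks what oral MEV did to liver RNA. Counts on genes ranged from 15746119 to 20523649 per GF+MEV library and from 16140770 to 19733387 per GF+PBS library. The liver label held in each library, with albumin (*Alb*) between 64590 and 83250 CPM. In whole tissue, fewer cells of a type and less RNA per cell cannot be told apart. GF+PBS replicates 1 and 3 were alike, with a root mean square difference in log2 CPM of 0.28 over all genes, as were replicates 4 and 5 at 0.28, where the other pairs of that group had 0.31 to 0.40. GF+MEV replicate 2 had a TMM scaling factor of 0.890 against 0.978 to 1.01 in the other GF+MEV livers. An alternative fit summed each close pair into 1 sample.

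In GRCm38 the 8 Akr1c genes of chromosome 13 spanned 537.5 kb, from 4049011 to 4586541. From low to high positions came *Akr1c14* (ENSMUSG00000033715, 4049011 to 4090688, plus strand), *Akr1c13* (ENSMUSG00000021213, 4191150 to 4205596, plus strand) and *Akr1c19* (ENSMUSG00000071551, 4228700 to 4252843, plus strand). Then followed *Akr1c12* (ENSMUSG00000021211, 4268176 to 4279433, minus strand), *Akr1c6* (ENSMUSG00000021210, 4434306 to 4457877, plus strand) and *Akr1c20* (ENSMUSG00000054757, 4486849 to 4523345, minus strand). The coding transcript of each had 9 exons and a coding sequence of 969 bases. *Akr1c12* and *Akr1c13* were 96.2% identical over the coding sequence, and *Akr1c6* and *Akr1c20* 92.3%, while all other pairs of Akr1c genes lay between 72.1% and 79.5%. Reads can be shared where copies match exactly: of all stretches of 50 bases in the transcripts of *Akr1c13*, 24.2% also occurred in another gene, in each case *Akr1c12*. For *Akr1c6* and *Akr1c20* the shares were 1.38% and 1.51%. *Akr1c14* shared 5.80% of its stretches with the overlapping pseudogene *Gm18857* and *Akr1c19* shared 4.14%, mostly with the overlapping pseudogene *Marcksl1-ps4*. The values of *Akr1c12* and *Akr1c13* are thus the least certain as separate genes.

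The promoters are printed because the genes differ in their upstream sequence far more than in their coding sequence, and because *Akr1c13* and *Akr1c12* have nearly the same one. RefSeq (GRCm38.p6) gave a promoter window, from 250 bases before to 50 bases after the start, for 8 of the 9 Akr1c genes, all but *Akr1c20*. The 250 bases before the start are shown 5′ to 3′ on the strand of the gene. Capitals mark a match to one of the motifs named in the next paragraph.
Akr1c13 (chr13:4190937-4191186, plus strand): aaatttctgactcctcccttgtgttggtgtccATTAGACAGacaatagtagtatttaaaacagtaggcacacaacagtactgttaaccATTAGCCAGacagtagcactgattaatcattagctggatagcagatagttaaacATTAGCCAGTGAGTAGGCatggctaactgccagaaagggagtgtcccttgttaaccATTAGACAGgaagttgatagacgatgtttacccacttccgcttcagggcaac
Akr1c12 (chr13:4279400-4279649, minus strand): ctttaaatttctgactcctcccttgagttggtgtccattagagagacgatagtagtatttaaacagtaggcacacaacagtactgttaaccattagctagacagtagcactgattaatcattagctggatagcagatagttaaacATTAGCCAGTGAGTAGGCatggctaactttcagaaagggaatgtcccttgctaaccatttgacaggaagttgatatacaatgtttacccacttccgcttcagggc
Akr1c19 (chr13:4233490-4233739, plus strand): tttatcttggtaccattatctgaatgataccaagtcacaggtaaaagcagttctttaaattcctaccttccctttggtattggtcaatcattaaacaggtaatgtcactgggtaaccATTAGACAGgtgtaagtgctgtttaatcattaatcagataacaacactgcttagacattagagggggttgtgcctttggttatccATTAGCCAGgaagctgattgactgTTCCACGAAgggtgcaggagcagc
Akr1c14 (chr13:4059341-4059590, plus strand): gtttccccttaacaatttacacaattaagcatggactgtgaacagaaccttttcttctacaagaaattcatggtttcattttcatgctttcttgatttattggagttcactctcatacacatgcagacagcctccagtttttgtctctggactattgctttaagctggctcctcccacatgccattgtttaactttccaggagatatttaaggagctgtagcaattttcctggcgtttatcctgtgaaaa
Akr1c6 (chr13:4434093-4434342, plus strand): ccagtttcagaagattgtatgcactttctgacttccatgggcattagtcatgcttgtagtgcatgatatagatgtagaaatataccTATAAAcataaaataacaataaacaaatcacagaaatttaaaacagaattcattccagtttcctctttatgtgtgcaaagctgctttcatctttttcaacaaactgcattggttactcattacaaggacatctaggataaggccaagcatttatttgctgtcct

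Over the whole window of 300 bases, *Akr1c13* and *Akr1c12* were 93.4% identical, with 12 mismatches and 8 gap columns. *Akr1c19* was 60.0% identical to *Akr1c13* and 58.8% to *Akr1c12*, and the other pairs of Akr1c windows lay between 50% and 56.2%, with 60 to 120 gap columns. Gaps raise the identity, and no unrelated promoters were aligned, so these lower values do not show shared sequence. A unit of 9 bases, ATTAGNCAG, recurred in 3 of the printed promoters and was chosen after the sequences had been seen. It occurred 4 times in *Akr1c13*, at 218, 162, 108 and 52 bases before the start, 2 times in *Akr1c19*, at 133 and 48 bases before it, and 1 time in *Akr1c12*, at 105 bases. Of all 32851 promoter windows, 0.627% held it on either strand. TGANNNNGC, a loose form of the antioxidant response element core, was searched with any base at each N. It matched in *Akr1c13*, *Akr1c12* and, 7 bases past the start, *Akr1c19*, and in 41.3% of all windows. In *Akr1c13* and *Akr1c12* that match directly follows a copy of the repeated unit, so both appear as 1 run of capitals. The STAT5 site TTCNNNGAA matched in *Akr1c19* and in 8.30% of windows, and the TATA box TATAAA matched in *Akr1c6*, 164 bases before its start, and in 13.6% of windows. The printed *Akr1c14* window had no match to any motif searched. That window, like the one of *Akr1c19*, lies inside the GENCODE span of its gene, since RefSeq places the start further along. None of the windows of these 5 genes held the short glucocorticoid receptor site AGAACA (19.0% of all windows), the E-box CACGTG (7.15%), the short HNF1 site GTTAAT (7.10%) or the full HNF1 palindrome (0.00913%), the C/EBP palindrome TTGCGCAA (0.183%) or the HNF4 direct repeat AGGTCANAGGTCA (0.0396%). Both strands were searched, and a match or its absence is a property of these letters alone.

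Per length of annotated exons, *Akr1c6* was by far the most abundant of the 6, at 595 ± 65.4 CPM per kb (SD, n = 5) in GF+PBS livers. *Akr1c14* followed at 97.3 ± 6.25, *Akr1c13* at 65.1 ± 4.13, *Akr1c12* at 55.9 ± 3.27, *Akr1c20* at 41.0 ± 2.93 and *Akr1c19* at 10.3 ± 0.839 CPM per kb (SD, n = 5). The only neighbours in this order whose GF+PBS ranges met were *Akr1c13* and *Akr1c12*, at 60.1 to 70.7 and 52.8 to 61.0 CPM per kb. The order was the same in GF+MEV livers, from 531 ± 50.8 for *Akr1c6* to 7.63 ± 0.888 CPM per kb for *Akr1c19* (SD, n = 5). *Akr1c19* has a long alternative transcript, and per length of the coding transcript alone it stood higher, at 49.0 ± 3.98 CPM per kb in GF+PBS livers, with *Akr1c20* at 57.02 ± 4.08 and *Akr1c12* at 55.9 ± 3.27 (SD, n = 5), so the order of these last 3 depends on the length used. Of the summed CPM of the 6 genes, *Akr1c6* took 66.1% ± 2.59 in GF+PBS and 68.1% ± 2.20 in GF+MEV livers (SD, n = 5).

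The mean level of each chosen gene was lower in GF+MEV than in GF+PBS livers, by 10.9% for *Akr1c6* up to 26.3% for *Akr1c19*. Counts were scaled by edgeR's TMM method to library size (CPM), and a fold change is GF+MEV over GF+PBS on the log2 scale with its standard error over livers. All 5 genes passed the filter on low counts, with 646 to 25267 counts per library. *Akr1c19*, the least abundant by CPM, was at 39.4, 47.3, 39.4, 47.6 and 51.0 CPM in GF+MEV replicates 1 to 5 and at 58.2, 63.4, 56.5, 58.1 and 68.4 CPM in GF+PBS replicates 1 to 5. Each GF+MEV liver lay below each GF+PBS liver. The means were 44.9 ± 5.23 and 60.9 ± 4.94 CPM (SD, n = 5), a log2 fold change of -0.44 (SE 0.09).

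*Akr1c14*, the 3-alpha-hydroxysteroid dehydrogenase, was at 213, 236, 197, 344 and 256 CPM in GF+MEV replicates 1 to 5. In GF+PBS replicates 1 to 5 it was at 289, 316, 310, 314 and 345.5 CPM. GF+MEV replicate 4 stood among the GF+PBS livers, and the other 4 GF+MEV livers lay below them all. The log2 fold change was -0.34 (SE 0.14), from 249 ± 57.5 against 315 ± 20.2 CPM (SD, n = 5), and was -0.48 without GF+MEV replicate 4. Its coefficient of variation was 23.1% in GF+MEV and 6.42% in GF+PBS livers, where counting error alone gives 1.43%.

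*Akr1c6*, the type 5 17-beta-hydroxysteroid dehydrogenase, was at 1089, 1146, 901, 1102 and 1155 CPM in GF+MEV replicates 1 to 5. In GF+PBS replicates 1 to 5 it was at 1403, 1081, 1291, 1131 and 1146 CPM. The groups overlapped, and the distance between their means rested on GF+MEV replicate 3, the lowest liver, and on GF+PBS replicates 1 and 3, the highest. The means were 1079 ± 103 and 1210 ± 133 CPM (SD, n = 5), a log2 fold change of -0.17 (SE 0.10), which was -0.11 without GF+MEV replicate 3 and also -0.11 without GF+PBS replicate 1.

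*Akr1c20*, close to *Akr1c6* in sequence and next to it on the chromosome, was at 63.5, 70.1, 55.3, 68.2 and 65.0 CPM in GF+MEV replicates 1 to 5. In GF+PBS replicates 1 to 5 it was at 84.9, 73.1, 77.7, 74.7 and 70.8 CPM. The groups did not overlap, although the highest GF+MEV liver, replicate 2 at 70.1 CPM, came close to the lowest GF+PBS liver, replicate 5 at 70.8 CPM. With means of 64.4 ± 5.70 and 76.2 ± 5.45 CPM (SD, n = 5), the log2 fold change was -0.24 (SE 0.07).

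*Akr1c13* was at 81.1, 74.2, 80.8, 80.1 and 84.2 CPM in GF+MEV replicates 1 to 5 and at 101, 86.2, 92.6, 96.6 and 89.8 CPM in GF+PBS replicates 1 to 5. Again the groups did not overlap, and this gene varied least within a group, with coefficients of variation of 4.52% in GF+MEV and 6.34% in GF+PBS livers. The means were 80.1 ± 3.62 and 93.3 ± 5.92 CPM (SD, n = 5), a log2 fold change of -0.22 (SE 0.05).

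**Figure D1:**
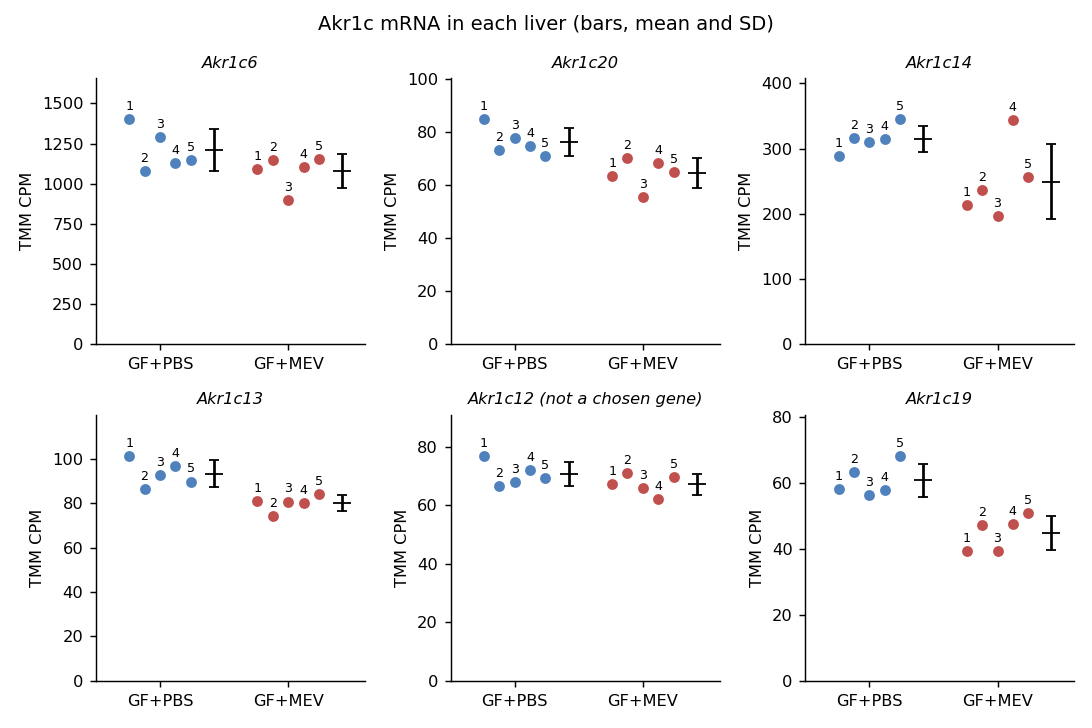
TMM-normalised CPM (y axis, starting at 0) of the 6 Akr1c genes in each liver, GF+PBS in blue and GF+MEV in red, with the replicate number above each point and the group mean with its SD as a black bar (n = 5 mice per group). The groups are apart for *Akr1c20*, *Akr1c13* and *Akr1c19* and overlap for *Akr1c6*, *Akr1c14* and *Akr1c12*, with GF+MEV replicate 4 at 344 CPM of *Akr1c14*.

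Of the 5 chosen genes, 3 had every GF+MEV liver below every GF+PBS liver, as did 3.45% of all genes tested. By edgeR's quasi-likelihood test at a Benjamini-Hochberg adjusted p under 0.05, 7.64% of all genes were called in either direction and 3.52% were called lower. *Akr1c13* and *Akr1c19*, 2 of the 5, were among the genes called lower. Since the same contrast chose the genes, nothing is read from these counts. Of all called genes, 53.9% were higher in GF+MEV livers, against 41.2% with upper-quartile scaling and 32.5% with library size alone. The alternatives reuse the same livers and contrast, so calls of chosen genes under them are a description as well and lend no support. *Akr1c19* was among the called genes under all 19 alternatives tried. *Akr1c13* was not called when any 1 of GF+MEV replicates 1, 2, 3 and 4 or GF+PBS replicates 1, 3 and 4 was left out, which left 1 called gene, or 2 without GF+MEV replicate 4, where *Akr1c14* was called instead. With the close GF+PBS pairs summed, *Akr1c13* also lost its call and 1 called gene was left. Without GF+PBS replicate 5, with DESeq2, with upper-quartile scaling or with library size alone, the count was 3, with *Akr1c20* added.

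The genes did not order the livers in one way. Among the GF+MEV livers, replicate 3 was lowest for *Akr1c6*, *Akr1c14* and *Akr1c20*, replicate 1 for *Akr1c19* and replicate 2 for *Akr1c13*. Replicate 5 was highest for *Akr1c6*, *Akr1c13* and *Akr1c19*, and replicate 4 for *Akr1c14*. Within GF+PBS, replicate 1 was highest for *Akr1c6*, *Akr1c13* and *Akr1c20* and lowest for *Akr1c14*, and replicate 5 was highest for *Akr1c14* and *Akr1c19* and lowest for *Akr1c20*. The summed level of the 6 genes was 1584 ± 148 CPM in GF+MEV and 1826 ± 129 CPM in GF+PBS livers (SD, n = 5). Over livers the sum ran from 1339 CPM in GF+MEV replicate 3 to 2013 CPM in GF+PBS replicate 1, and the groups overlapped, since GF+MEV replicate 4 at 1704 CPM lay above GF+PBS replicate 2 at 1686 CPM.

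**Figure D2:**
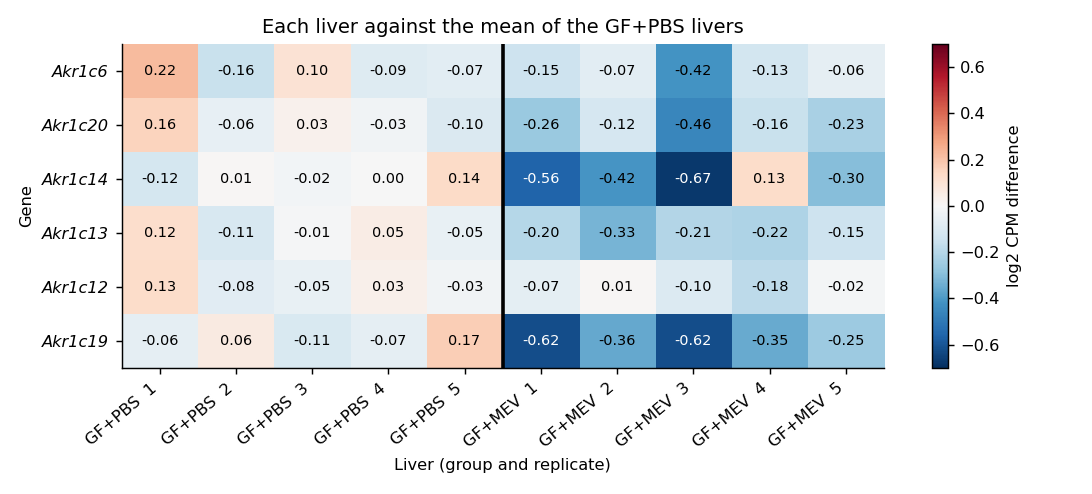
Log2 CPM of each Akr1c gene (rows) in each liver (columns) minus the mean of the GF+PBS livers for that gene, in blue where lower and red where higher. The lowest cell is *Akr1c14* in GF+MEV replicate 3 at -0.67, and the same gene is at 0.13 in GF+MEV replicate 4, while all GF+MEV cells of *Akr1c19* lie between -0.62 and -0.25.

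*Akr1c12*, the tested gene of the cluster, is the closest copy of *Akr1c13* in coding sequence and promoter. *Akr1c12* was at 67.3, 70.9, 65.8, 62.0 and 69.7 CPM in GF+MEV replicates 1 to 5 and at 76.9, 66.6, 67.8, 72.2 and 69.2 CPM in GF+PBS replicates 1 to 5. The groups overlapped between 66.6 and 70.9 CPM, with GF+MEV replicates 3 and 4 below that stretch and GF+PBS replicates 1 and 4 above it. Its log2 fold change was -0.07 (SE 0.05), with an adjusted p of 0.543 by edgeR's quasi-likelihood test, and over the alternatives it ran from -0.15 to -0.04 with adjusted p from 0.153 to 0.784. Leaving out GF+PBS replicate 1 gave the value nearest to 0, -0.04, and leaving out GF+MEV replicate 4 gave -0.04 as well. The ratio of *Akr1c13* to *Akr1c12* lay between 1.05 and 1.29 in GF+MEV livers and between 1.30 and 1.365 in GF+PBS livers. GF+MEV replicate 2 had the lowest ratio, and GF+MEV replicate 4 came within the third decimal of GF+PBS replicate 2. This ratio includes a chosen gene and was not tested. The other close pair, *Akr1c6* over *Akr1c20*, had ratios of 16.2 to 17.8 in GF+MEV and of 14.8 to 16.6 in GF+PBS livers, which overlapped.

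**Figure D3:**
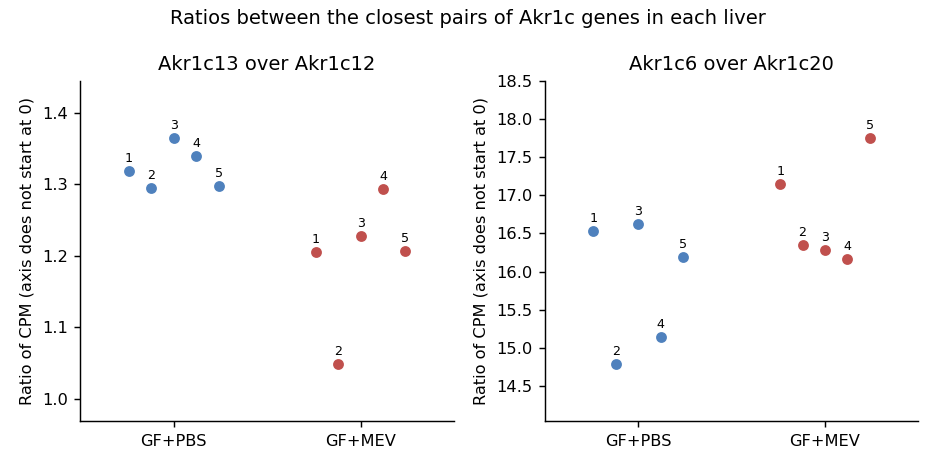
Ratio of CPM (y axis, not starting at 0) between the 2 closest pairs of Akr1c genes in each liver, GF+PBS in blue and GF+MEV in red, with the replicate number above each point. The left panel shows *Akr1c13* over *Akr1c12*, from 1.05 to 1.365, and the right panel *Akr1c6* over *Akr1c20*, from 14.8 to 17.8.

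Within 500 kb of the Akr1c span, 6 tested genes were not among the chosen ones: *Gdi2*, *Fam208b*, *Asb13*, *Net1*, *Akr1c12* and *Akr1e1*. None was called by edgeR's quasi-likelihood test, none had an unadjusted p under 0.05, and DESeq2 and limma-voom called 0 of them too. Of all genes tested, 7.64% were called by edgeR, so 0 of 6 is near that share and nothing is read from it. The values of 2 follow, named after they had been seen. *Akr1e1*, an aldo-keto reductase of another subfamily just above the cluster, was at 33.5 ± 2.55 CPM in GF+MEV and 34.0 ± 2.19 CPM in GF+PBS livers (SD, n = 5), a log2 fold change of -0.02 (SE 0.06). *Gdi2*, which keeps Rab proteins in the cytosol, was at 214 ± 9.30 CPM in GF+MEV and 214 ± 5.53 CPM in GF+PBS livers (SD, n = 5), with a log2 fold change of -0.0048 (SE 0.03).

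**Figure D4:**
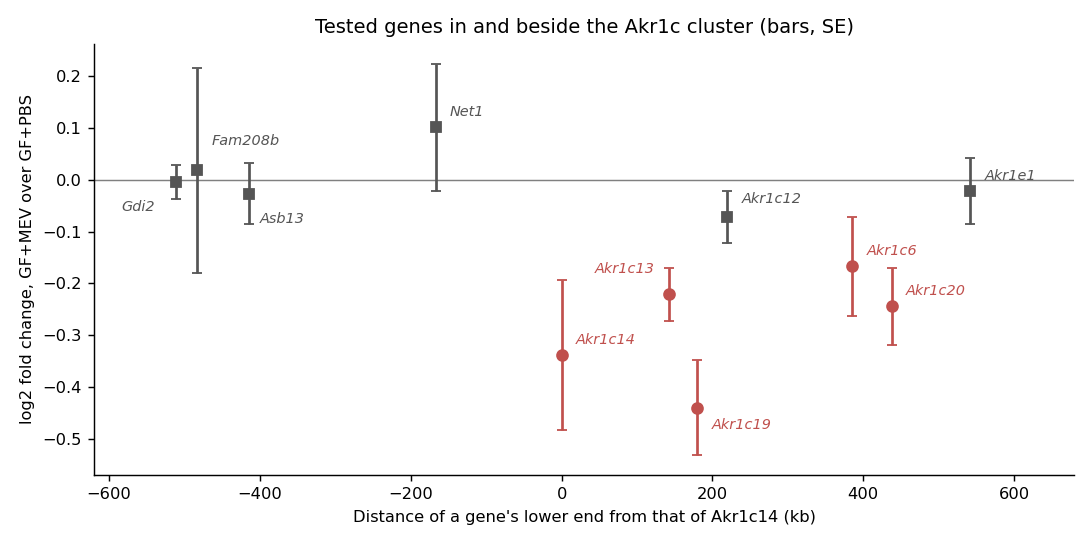
Log2 fold change (y axis) of the 11 tested genes in and beside the cluster against the distance in kb of the lower end of each gene from that of *Akr1c14* (x axis), with bars for the SE over livers, the chosen genes as red circles and the others as grey squares. The chosen genes lie between -0.44 and -0.17, and the others between -0.07 and 0.10. Measured values of the same livers entered the choice, so this separation is not a result.

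For each chosen gene, the 3 genes whose log2 CPM over the 10 livers came closest to its own were named, by the root mean square (RMS) difference after each gene was centred on its own mean, among the 11834 genes whose mean reached 1 CPM. This likeness includes the difference between the groups. Nearest to *Akr1c19* came *Nfe2l2*, which encodes the antioxidant response factor NRF2, with an RMS difference of 0.07, then *Pigv* of glycosylphosphatidylinositol anchor synthesis and *Hpgd*, the prostaglandin-inactivating dehydrogenase, at 0.09 each. Nearest to *Akr1c6* came *Ugt2b36*, a steroid and drug glucuronosyltransferase, at 0.04, with *Prdx1*, a peroxiredoxin, and *Pon1*, the paraoxonase, at 0.05 each. *Akr1c20* was nearest to *Pfdn1* of the prefoldin chaperone, *Idh1*, the cytosolic isocitrate dehydrogenase, and *Aldh1a7*, an aldehyde dehydrogenase, at 0.06 to 0.07. *Akr1c13* was nearest to *Mtif3*, a mitochondrial translation factor, *Casp6*, a caspase, and *Eva1b*, at 0.04 to 0.05, and *Akr1c14* to *Tirap*, an adaptor of Toll-like receptors, *Gm4951* and *Entpd5*, an endoplasmic reticulum nucleotidase, at 0.10 to 0.13. Within the cluster, *Akr1c6* and *Akr1c20* were the most alike: *Akr1c20* ranked 14 for *Akr1c6* and *Akr1c6* ranked 10 for *Akr1c20*, at an RMS difference of 0.07. *Akr1c19* ranked 21 for *Akr1c14* and *Akr1c14* ranked 98 for *Akr1c19*, at an RMS difference of 0.16. *Akr1c12* ranked 445 for *Akr1c13*, though at a smaller RMS difference of 0.10, so ranks cannot be compared between chosen genes. The difference between groups that entered the choice of *Akr1c13*, and not of *Akr1c12*, is part of that 0.10.

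Genes related to the cluster were taken from lists, which were written with earlier results of these data known. Beside enzymes of related substrates, the lists held NRF2 targets and regulators of hepatocyte enzyme genes. Over the 8 lists, 113 genes were tested, of which 6 were called higher and 20 lower by edgeR's quasi-likelihood test. The regulators made up 4 of the 6 and 5 of the 20. Of all 12147 genes tested, 500 were called higher and 428, or 3.52%, lower. The median log2 fold change over all 12147 genes was -0.0037. The count of 20 became 12 without GF+MEV replicate 1 or 2, 9 without GF+MEV replicate 3, 11 without GF+PBS replicate 4 and 7 with the close GF+PBS pairs summed. Of 7 other aldo-keto reductases tested, 1 was called lower and 0 higher, with none at an unadjusted p under 0.05 in the higher direction and 0 called higher by DESeq2 or limma-voom. Their median log2 fold change was -0.12. Of the 7, 6 had a negative log2 fold change. The one called lower was *Akr1d1*, the steroid 5-beta-reductase of bile acid and steroid hormone breakdown, which was at 149, 142, 135, 151 and 159 CPM in GF+MEV replicates 1 to 5 and at 158, 183, 164, 177 and 204 CPM in GF+PBS replicates 1 to 5. Only GF+MEV replicate 5 reached the lowest GF+PBS liver. Its log2 fold change was -0.27 (SE 0.08, adjusted p = 0.0355), and without any 1 of GF+MEV replicates 1 to 4 or GF+PBS replicates 2, 4 and 5, or with the close GF+PBS pairs summed, the adjusted p rose to between 0.0544 and 0.0878.

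Of 15 hydroxysteroid dehydrogenases and steroid reductases tested, 2 were called lower and 1 higher, with a median log2 fold change of -0.05. *Hsd11b1*, which regenerates active glucocorticoid in the liver, fell from 541 ± 36.1 to 448 ± 32.1 CPM (SD, n = 5), without overlap between the groups. Its log2 fold change was -0.27 (SE 0.06, adjusted p = 0.0209). *Hsd3b3*, a 3-beta-hydroxysteroid dehydrogenase, fell from 175 ± 10.1 to 149 ± 8.17 CPM (SD, n = 5), also without overlap, at -0.23 on the log2 scale (SE 0.05, adjusted p = 0.0264). It has near copies in the genome, so its reads may be split with them, as may those of the glutathione S-transferases named further on. *Srd5a1*, the steroid 5-alpha-reductase, moved the other way, from 83.6 ± 4.53 to 104 ± 9.82 CPM (SD, n = 5), with each GF+MEV liver above each GF+PBS liver. Its log2 fold change was 0.31 (SE 0.07, adjusted p = 0.0127). The call of *Hsd11b1* was lost without GF+MEV replicate 3, without GF+PBS replicate 4 and with the close GF+PBS pairs summed (adjusted p from 0.0522 to 0.109). That of *Hsd3b3* was lost without GF+MEV replicate 1, 2 or 3, without GF+PBS replicate 4 and with the pairs summed (adjusted p from 0.0534 to 0.0943), while *Srd5a1* was called under all 19 alternatives. The remaining 12 genes of the list were not called.

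Among 12 enzymes of bile acid synthesis, 1 was called higher and 1 lower, with a median log2 fold change of -0.0087. *Cyp27a1*, the mitochondrial sterol 27-hydroxylase, rose from 745 ± 42.6 to 898 ± 55.0 CPM (SD, n = 5), a log2 fold change of 0.27 (SE 0.05, adjusted p = 0.0152), and the lower one was *Akr1d1* again. Scaling by library size alone or by the upper quartile lowered the rise of *Cyp27a1* to 0.19 and 0.23, with adjusted p of 0.0717 and 0.0504. Among 10 prostaglandin enzymes and receptors, *Hpgd* was called lower, at 122 ± 13.2 against 151 ± 11.4 CPM (SD, n = 5), a log2 fold change of -0.30 (SE 0.08, adjusted p = 0.0264). Without GF+MEV replicate 1 or 3, without GF+PBS replicate 2 or with the close GF+PBS pairs summed, its adjusted p was 0.0567 to 0.0677. No gene of that list was called higher by edgeR, DESeq2 or limma-voom, and 0 had an unadjusted p under 0.05 in that direction.

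Of 21 other enzymes that act on carbonyls, aldehydes and alcohols, 7 were called lower and 0 higher by edgeR, with a median log2 fold change of -0.23, and 0 were higher at an unadjusted p under 0.05 or by DESeq2 or limma-voom. *Adh7*, an alcohol dehydrogenase with retinol and ethanol as substrates, fell from 20.5 ± 2.73 to 13.8 ± 1.36 CPM (SD, n = 5), a log2 fold change of -0.57 (SE 0.11, adjusted p = 0.0026), and was called under all 19 alternatives. *Adh1*, the main alcohol dehydrogenase of the liver, fell from 1802 ± 203.5 to 1448 ± 112 CPM (SD, n = 5), and *Adh4* from 182 ± 10.4 to 149 ± 15.2 CPM (SD, n = 5). *Aldh1a1*, a retinal dehydrogenase, fell from 1844 ± 116 to 1362 ± 259 CPM (SD, n = 5), *Dhrs3*, which reduces retinal, from 123 ± 14.5 to 100 ± 4.89 CPM (SD, n = 5), and *Nqo1*, a quinone reductase, from 12.3 ± 2.24 to 8.61 ± 0.774 CPM (SD, n = 5). The log2 fold changes of these 5 were -0.32, -0.28, -0.44, -0.29 and -0.51, with adjusted p of 0.0268, 0.0263, 0.0251, 0.0286 and 0.0229, in the order given. Their calls were less steady than that of *Adh7*, and the count of 7 went to 3 without GF+MEV replicate 1, without GF+MEV replicate 3 or without GF+PBS replicate 4, to 4 without GF+MEV replicate 2 or 4 or GF+PBS replicate 1, 3 or 5, and to 2 with the close GF+PBS pairs summed.

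**Figure D5:**
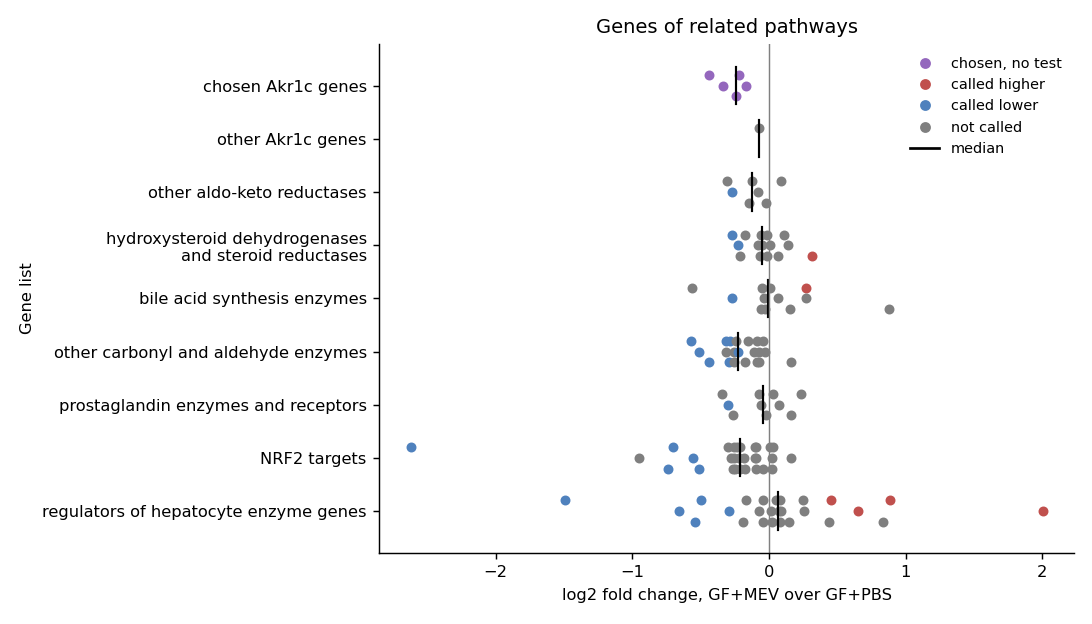
Log2 fold change (x axis) of every tested gene of the 8 lists (rows), with the 5 chosen Akr1c genes in the first row in purple, genes called higher in red, called lower in blue and not called in grey, and a black line at the median of each row. The row of other carbonyl and aldehyde enzymes has its median at -0.23 and the NRF2 targets at -0.21, and *Osgin1* is the point at -2.62.

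The antioxidant response factor NRF2, encoded by *Nfe2l2*, is known to drive several aldo-keto reductase genes, and its targets were listed for that reason. *Nfe2l2* RNA was at 43.7, 46.7, 38.8, 45.6 and 47.7 CPM in GF+MEV replicates 1 to 5 and at 59.0, 67.5, 58.5, 62.4 and 66.7 CPM in GF+PBS replicates 1 to 5. The groups were far apart, and the log2 fold change was -0.50 (SE 0.07, adjusted p = 0.000368 by edgeR's quasi-likelihood test). Of 29 NRF2 targets tested, 5 were called lower and 0 higher, with a median log2 fold change of -0.21, and in the higher direction 0 had an unadjusted p under 0.05 or were called by DESeq2 or limma-voom. *Osgin1*, an oxidative stress response gene, fell from 287 ± 55.3 to 46.6 ± 6.19 CPM (SD, n = 5), a log2 fold change of -2.62 (SE 0.15, adjusted p = 1.59e-08). *Gsta2*, a glutathione S-transferase, fell from 39.2 ± 5.93 to 24.1 ± 2.67 CPM (SD, n = 5), at -0.70 on the log2 scale (SE 0.13, adjusted p = 0.000825). *Gstm3*, another glutathione S-transferase, and *Abcc4*, an efflux transporter, were called lower at -0.56 and -0.74 on the log2 scale (adjusted p of 0.0403 and 0.0391), beside *Nqo1*. *Gstm3* lost its call in 10 alternatives and *Abcc4* in 9, among them the sum of the close GF+PBS pairs and, for *Gstm3*, limma-voom. The count of 5 became 9 with library size alone, 3 without GF+MEV replicate 1, 2 or 3 or GF+PBS replicate 1, and 2 without GF+PBS replicate 4 or 5, and it became 3 with the close GF+PBS pairs summed. Of the 29, 24 had a negative and 5 a positive log2 fold change. By edgeR's quasi-likelihood test, 14 were lower at an unadjusted p under 0.05, among them *Gclc* (log2 fold change -0.26, adjusted p = 0.191). *Gclm*, *Txnrd1* and *Srxn1*, also on the list, were at 178, 132 and 55.1 CPM in GF+MEV and at 191, 130 and 58.8 CPM in GF+PBS livers on average, and were not called. They and *Gclc* were named after their values had been seen.

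Of 26 regulators of hepatocyte enzyme genes, 4 were called higher and 5 lower, with a median log2 fold change of 0.06, and the count of 5 became 3 with the close GF+PBS pairs summed. *Foxa2* and *Foxa1*, pioneer factors of hepatocyte genes, fell from 38.0 ± 5.34 to 13.5 ± 1.88 CPM and from 24.0 ± 2.09 to 15.2 ± 0.739 CPM (SD, n = 5). Their log2 fold changes were -1.50 (SE 0.13, adjusted p = 9.08e-07) and -0.66 (SE 0.06, adjusted p = 6.44e-05). *Hnf4a*, the nuclear receptor of hepatocyte identity, rose from 526 ± 36.8 to 719 ± 39.3 CPM (SD, n = 5), a log2 fold change of 0.45 (SE 0.06, adjusted p = 0.000361). *Cebpb*, a factor of the acute phase and fasting responses, rose from 73.9 ± 14.3 to 297 ± 29.2 CPM, and *Ahr*, the receptor for aromatic compounds, from 30.8 ± 4.38 to 57.1 ± 12 CPM (SD, n = 5). Their log2 fold changes were 2.0 (SE 0.14, adjusted p = 8.54e-08) and 0.89 (SE 0.15, adjusted p = 0.000515). These 5 genes and *Nfe2l2* kept their call and direction under all 19 alternatives. Whether any of these regulators bears on the Akr1c genes was not tested.

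Some markers of liver zones were called, and most were not. Of 12 markers of periportal hepatocytes, 5 were called higher and 0 lower (*Sds*, *Ass1*, *Arg1*, *Pck1* and *Cdh1*), 4 had a negative log2 fold change, and the median over the list was 0.12. Their summed level was 14230 to 16320 CPM in GF+MEV against 7935 to 10950 CPM in GF+PBS livers, a difference carried mostly by *Pck1*, the rate-limiting enzyme of gluconeogenesis, at 6921 ± 696 against 2122 ± 749.8 CPM (SD, n = 5). Of 11 markers of pericentral hepatocytes, 3 were called lower and 0 higher (*Axin2*, *Rgn* and *Cyp2a5*), 4 had a positive log2 fold change, and the median was -0.20, with sums of 13930 to 15840 and 15480 to 16550 CPM, while *Glul*, the defining enzyme of the cells around the central vein, was at 1035 ± 73.6 and 1025 ± 81.6 CPM (SD, n = 5) and is named although not called. Of 7 general hepatocyte markers, 1 was called higher (*Cps1*). Among other cells, Kupffer cell, stellate cell and skeletal muscle markers had 0 calls of 8, 8 and 4 tested by edgeR, DESeq2 and limma-voom, with 0, 1 and 1 at an unadjusted p under 0.05. Sums of Kupffer cell markers ran from 229 to 439 CPM in GF+MEV and from 262 to 382 CPM in GF+PBS livers. Endothelial markers had 1 call in each direction of 8 (*Lyve1* higher, *Clec4g* lower), and lymphocyte markers 2 lower of 5 (*Cd79a* and *Cd79b*). Bile duct markers had 1 call higher of 3, *Krt19*, which averaged 0.560 CPM in GF+PBS livers. It ran from 0.964 to 16.8 CPM over GF+MEV livers. Of these 3 markers, 2 had a positive and 1 a negative log2 fold change. The negative one was *Sox9*, named although not called, at -0.98 (adjusted p = 0.103 by edgeR's quasi-likelihood test). Of 2 adrenal and pancreas markers, 0 were called by edgeR, DESeq2 or limma-voom, and 0 had an unadjusted p under 0.05. The part of these values in the Akr1c values was not tested.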

How the data were processed

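RNA of whole liver from 5 GF+MEV and 5 GF+PBS mice was analysed, grouped by the sample labels. Alignment by the authors was to GRCm38 with STAR 2.7.3a, per the submitters' processing notes. HTSeq gave counts per Ensembl gene, which the authors deposited raw and unscaled after removing genes below a sum of 20. Strand setting and annotation version are not given in the sources used here. A further 5 value columns match no described sample and were not used. Depth was 15746119 to 20523649 counts per library.

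Genes with at least 20 counts over the 10 libraries were tested, 12147 in all, with edgeR 4.0.16 in R 4.3.3: TMM factors, a quasi-likelihood fit on treatment, with p adjusted by Benjamini-Hochberg and called under 0.05. Log2 CPM for standard errors used a prior count of 2. The labels number the mice within a group and name no cage or litter, so whether the groups also differed in these is not known. The p-values set the difference between groups against the spread between these 5 livers per group, which may be partly technical. Symbols and gene models came from GENCODE M21, and 10 identifiers had no symbol. Coding sequences stood in for the planned protein comparison, and were aligned with Biopython 1.88. The members and all lists were chosen with earlier results of these data known. Named were the 5 members, *Akr1c12*, called neighbours, the 3 genes most like each member, called markers, and the called genes of each pathway list, or the 6 with the smallest p. Alternatives were DESeq2 1.42.0, limma-voom (limma 3.58.1), other scalings and filters, a block for replicate numbers, each liver left out, and summed GF+PBS pairs. The use of coding transcript length for levels was added after the data were seen. The fits were tested on simulated data.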

Additional observations from a re-analysis of the deposited data

Results flagged for a closer look

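A liver far from the other 4 of its group was looked for in 62 groups of 5 livers, and 6 were found where chance gives about 1 in 20 groups, or 3.1. Of the Akr1c genes, *Akr1c6* was at 901 CPM in GF+MEV replicate 3, with the other GF+MEV livers between 1089 and 1155 CPM. *Adh7* was at 11.4 CPM in GF+MEV replicate 1, against 13.8 to 14.6 CPM in the others, and *Nqo1* was at 7.26 CPM in the same liver, against 8.79 to 9.18 CPM. *Ahr* was at 77.9 CPM in GF+MEV replicate 2, against 47.1 to 55.3 CPM. That liver also had the TMM factor of 0.890, against 0.978 to 1.01. For *Gstm3* the distant liver was GF+PBS replicate 2 at 55.5 CPM, the rest of its group having 94.8 to 103 CPM.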

How the results depend on the processing

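Each of the 5 chosen genes was lower in GF+MEV livers under all 19 alternatives. Leaving out single livers gave log2 differences of -0.21 to -0.11 for *Akr1c6*, -0.25 to -0.19 for *Akr1c13*, -0.48 to -0.26 for *Akr1c14*, -0.49 to -0.40 for *Akr1c19* and -0.27 to -0.19 for *Akr1c20*. Scaling by library size alone gave -0.24, -0.29, -0.41, -0.52 and -0.32 in the same order, and moved the calls over all genes from 500 higher and 428 lower to 332 higher and 691 lower. With the close GF+PBS pairs summed, 209 genes were called lower and, of the pathway lists, 7 in place of 20. Leaving out single livers gave 9 to 18 such list genes, 388 to 561 genes called higher and 304 to 397 called lower. Of 22 named list genes, 10 kept call and direction under all alternatives. The cause of these shifts was not tested.

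The deviations of same-numbered livers from their group means had correlations from -0.19 to 0.17 across genes. No reference for paired or unpaired mice was set beside these values, so whether the numbers pair the mice is not known. With a replicate block, the log2 difference was -0.17 for *Akr1c6*, -0.22 for *Akr1c13*, -0.36 for *Akr1c14*, -0.44 for *Akr1c19*, -0.25 for *Akr1c20* and -0.07 for *Akr1c12*, and 792 genes were called in place of 928. Under the block *Akr1c13* lost its call, which left 1 chosen gene called, and the count of carbonyl and aldehyde enzymes called lower went from 7 to 3, with adjusted p of 0.0733 for *Adh1*, 0.0783 for *Adh4* and 0.0507 for *Aldh1a1*. With 5 mice per group, differences as small as that of *Akr1c12* lie within the spread between livers, and reads shared by *Akr1c12* and *Akr1c13* limit both.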
